A study of Mus musculus with 12 samples.

Results

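Histone genes fall into clustered genes, most of which are transcribed when DNA is replicated, and variant genes outside the clusters. Rows of the deposited gene count table were taken whose symbol begins with Hist1h, Hist2h, Hist3h or Hist4h, together with H1f0, H2afx, H2afz, H2afy, H2afv, H2afj, H3f3a and H3f3b, if they held at least 10 counts over the 12 libraries. This gave 76 genes of 24421 in the table, and no row with such a name fell below the minimum. They comprised 68 clustered genes and 8 variant genes. The clustered genes encode 6 H1, 18 H2A, 19 H2B, 12 H3 and 13 H4 histones, and lie in the Hist1 cluster on chromosome 13 (54 genes), the Hist2 cluster on chromosome 3 (10), the Hist3 cluster on chromosome 11 (3) and Hist4 on chromosome 6 (1). The lowest totals were 12 counts for Hist1h1t and 61 for Hist1h2aa, and these were the only members too low to be tested. The remaining 74 were tested among 11468 genes.

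Nucleosomes are built from H2A, H2B, H3 and H4, and H1 binds the DNA between them. Most clustered genes are switched on together in S phase by the coactivator Npat, and their mRNAs end in a stem-loop in place of a poly(A) tail, which Slbp binds. Variant genes such as H3f3a and H3f3b (both encoding H3.3), H2afz (H2A.Z) and H1f0 (H1.0) have introns or poly(A) tails and are made at all stages of the cell cycle. Some clustered genes are also known to make polyadenylated mRNA, above all in cells that have stopped dividing.

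The samples were macrophages grown from C57BL/6 bone marrow for 5 days in 100 ng/mL M-CSF, with the medium replaced on day 3. Cells from 3 mice, labelled A, B and C, were exposed for 4 hours to ovalbumin (Ova) or to insoluble IgG immune complexes of ovalbumin (IC), with 5.0 μM I-BET151 (iBET), which blocks the acetyl-lysine pockets of BET proteins, or with DMSO, given as 5% in the labels. Each mouse gave 1 library to each of the 4 groups (DMSO with Ova, iBET with Ova, DMSO with IC and iBET with IC), so that n = 3 mice per group. The labels have drug and stimulus added at the same time, whereas the methods have the drug added first, and this could not be settled here. The cells were a bulk population, so fewer cells in S phase and less histone RNA per cell cannot be told apart.

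Libraries held 7549850 to 17387600 counts. In the culture of mouse A with DMSO and Ova the ribosomal RNA gene Rn45s took 77.4% of the 7816770 counts, against 1.41% to 7.83% in the other 11 libraries, so low members were counted least well there. The 10 macrophage markers all passed the filter on low counts. Summed over 4 genes each, T cell markers held 0 to 10 counts per library, erythroid markers 0 to 1, stromal markers 0 to 12 and dendritic cell markers 1 to 22. Levels are given in CPM, the counts scaled by TMM to a common library size, always for mice A, B and C in that order, followed where useful by the mean ± SD. A gene was called when edgeR's quasi-likelihood test, adjusted over all 11468 genes, gave p under 0.05. The fit had 1 term per group, and a second fit added a term for the mouse, since each mouse is present in every group.

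The 3′ end of the mRNA separates the 2 kinds of histone gene. A match to the histone stem-loop consensus was found in annotated GENCODE vM21 transcripts of 47 members, namely 46 clustered genes and H2afx, against 86 of 55450 genes in the annotation. The sequences below are shown because they are the feature that marks a replication-dependent mRNA. Capitals mark the arms of the stem and lower case the loop.
Hist1h2ab and 25 other members: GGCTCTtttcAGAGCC
Hist1h4h and 6 other members: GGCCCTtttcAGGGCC
H2afx: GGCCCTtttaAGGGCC
The first form was the commonest, found in 26 members, and the second was found in 7. Of the 22 clustered genes without a match, 13 have transcript models that stop at the end of the coding part. A stem-loop could not be seen in these. The models of some others, such as Hist1h1b, run only a little further. In 23 clustered genes the annotated transcript ended within 100 bases of the stem-loop, and in 23 others it ran further, for 840 bases in Hist1h1c and 1643 in Hist3h2a. The annotated transcripts of Hist1h2bc and Hist2h2be held no match.

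Many clustered genes stand head to head and share a promoter. RefSeq windows of 300 bases (250 before the start and 50 after it, GRCm38.p6) were available for 69 members. The 4 windows below are shown because their genes include members that rose and members that fell with iBET. Capitals mark the CCAAT box (CCAAT), the TATA box (TATAAA) and the octamer (ATTTGCAT) on either strand.
Hist1h2ac and Hist1h2bc, chr13:23683910-23684209, minus strand: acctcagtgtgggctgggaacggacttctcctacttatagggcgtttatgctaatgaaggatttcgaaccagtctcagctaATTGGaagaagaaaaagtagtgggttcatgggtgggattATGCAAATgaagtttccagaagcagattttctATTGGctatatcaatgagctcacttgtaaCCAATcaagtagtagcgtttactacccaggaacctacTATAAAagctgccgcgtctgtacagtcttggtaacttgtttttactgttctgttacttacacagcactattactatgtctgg
Hist2h2ac and Hist2h2be, chr3:96220831-96221130, minus strand: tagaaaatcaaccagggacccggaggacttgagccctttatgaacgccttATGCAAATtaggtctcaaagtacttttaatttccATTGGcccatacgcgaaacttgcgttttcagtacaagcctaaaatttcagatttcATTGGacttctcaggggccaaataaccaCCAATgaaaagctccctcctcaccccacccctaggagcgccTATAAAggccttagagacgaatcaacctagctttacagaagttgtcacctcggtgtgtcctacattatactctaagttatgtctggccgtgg
Hist1h2bp and Hist1h2an, chr13:21787238-21787537, plus strand: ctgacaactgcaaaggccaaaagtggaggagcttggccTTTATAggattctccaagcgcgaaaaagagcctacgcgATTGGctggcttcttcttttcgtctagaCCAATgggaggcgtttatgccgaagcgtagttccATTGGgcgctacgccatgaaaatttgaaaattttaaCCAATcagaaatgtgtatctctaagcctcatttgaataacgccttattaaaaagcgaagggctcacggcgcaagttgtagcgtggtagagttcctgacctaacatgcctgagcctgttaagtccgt
H3f3b, chr11:116024455-116024754, minus strand: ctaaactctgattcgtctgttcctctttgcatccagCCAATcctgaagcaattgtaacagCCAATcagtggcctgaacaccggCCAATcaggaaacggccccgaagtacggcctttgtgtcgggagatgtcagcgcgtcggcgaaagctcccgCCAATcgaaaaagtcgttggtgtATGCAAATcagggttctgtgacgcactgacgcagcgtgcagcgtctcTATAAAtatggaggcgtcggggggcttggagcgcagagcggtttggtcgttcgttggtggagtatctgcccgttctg
A CCAAT box was found in 53 of the 62 clustered windows, against 37.4% of the 32851 mouse windows in the table, and a TATA box in 35 of 62, against 13.6%. The octamer was found in 14 of 62, against 1.74%, among them 7 of 16 H2B windows and 0 of 12 H4 windows. It was also present in the window of H3f3b and in the windows shared by Hist1h2ac with Hist1h2bc and by Hist2h2ac with Hist2h2be, but these letters were not found in the window of Hist1h2bp.

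Near-identical coding sequences limit what a single row means. Rows of Hist1h2bq and Hist1h2br were identical in all 12 libraries, as were those of Hist2h2aa1 and Hist2h2aa2 and those of Hist2h3c1 and Hist2h3c2, and Hist1h2ao and Hist1h2ap differed by at most 3 counts. In 25 members at least 50% of the 100-base windows of the transcript occurred in another gene as well, and how reads with several homes were counted is not given in the sources used here. Values of such members are therefore uncertain between copies. In 11 members no window was shared, among them H1f0, Hist2h2be and Hist1h1b, and in H3f3b 1.92% were.

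Per kilobase of exon, the highest member was the identical pair Hist2h2aa1 and Hist2h2aa2, core H2A genes, at 1783 and 1979 CPM per kilobase over the 12 libraries, followed by Hist1h2ab at 637 and Hist1h2ad at 576. The next members, Hist1h2ao, Hist1h2ap, Hist1h2ai, Hist2h2ac, Hist2h2bb and Hist1h2af, lay between 341 and 502 CPM per kilobase, and H3f3b came to 284. Hist1h2ab and Hist1h2ad varied more between mice (CPM 144, 341 and 669 and 97.1, 352 and 744 with DMSO and Ova) than they differed from each other. At the other end, Hist3h2ba averaged 1.06 and Hist4h4 1.78 CPM per kilobase. Over the mice of a group, the SD of a clustered member was 56.1% of its mean in the median, against 17.7% for the variants and 13.6% for all genes tested.

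The first question was which histone transcripts changed when BET proteins were blocked. With Ova, iBET raised 5 of the 74 members, namely the H3.3 gene H3f3b, the H2B gene Hist1h2bc, the linker histone gene H1f0, the H2B gene Hist2h2be and the H2A.Z gene H2afz, and lowered 0 (7 had an unadjusted p under 0.05). With IC it raised these 5 and also the H2A gene Hist3h2a and the second H3.3 gene H3f3a, and lowered the H2A gene Hist2h2ab. In the background of all genes, 17.1% passed as higher and 14.2% as lower with Ova, and 19.0% and 15.8% with IC. The members called higher came to 6.76% with Ova and 9.46% with IC, below the share of all genes. Of the 8 variants 3 were called higher with Ova and 4 with IC, and of the 66 clustered genes tested 2 and 3. The median log2 fold change of the members was -0.28 with Ova and -0.25 with IC, against 0.02 and 0 within rounding for all genes. The sign of these medians changed when 1 library of mouse C was left out and its partner kept. Without its DMSO library they were 0.18 with Ova and 0.39 with IC, and without its iBET library -0.82 and -0.70. With mouse C left out altogether they were -0.21 and -0.11, and with the mouse term -0.24 and -0.16.

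**Figure D1:**
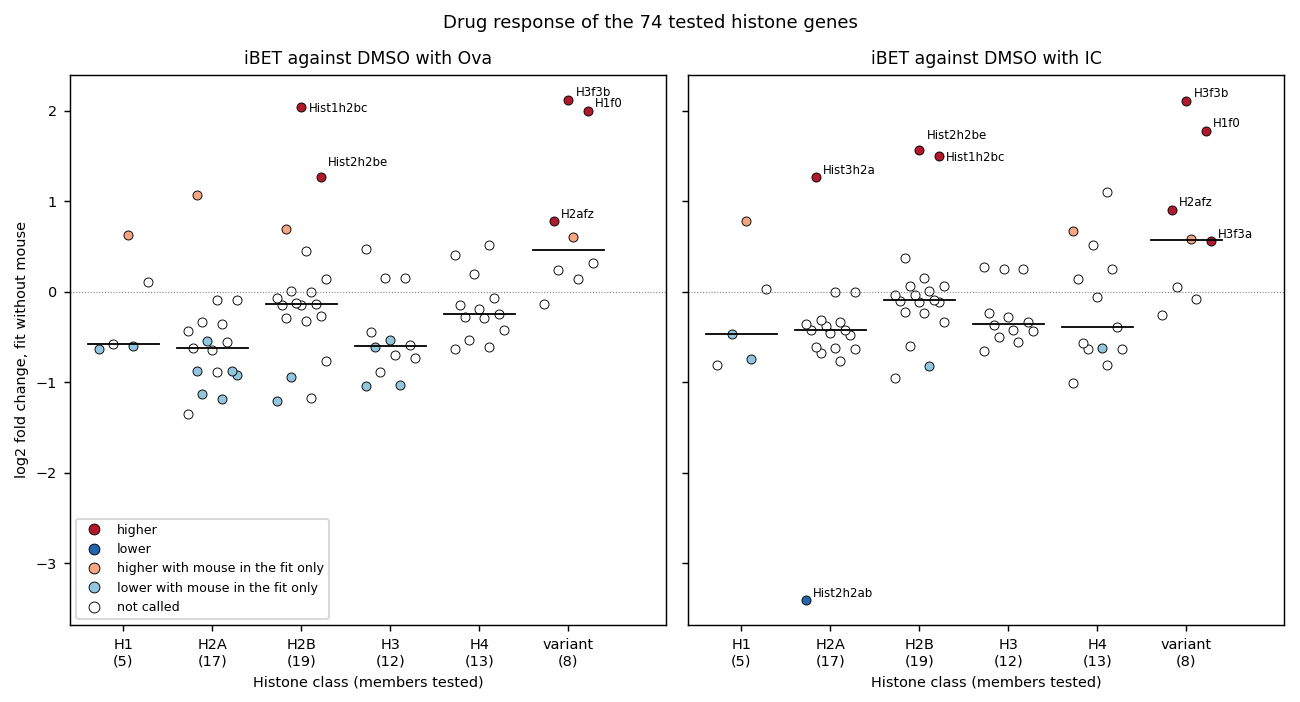
Log2 fold change of iBET against DMSO (y axis) of each of the 74 tested members by histone class, with Ova (left) and IC (right), from the fit without a mouse term. Points are genes, bars are class medians, and colours mark calls in the fit without the mouse term or only in the fit with it. H3f3b, H1f0, Hist1h2bc and Hist2h2be are the 4 highest points in both panels, the medians of the clustered classes lie below 0, and Hist2h2ab stands alone at the bottom with IC.

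H3f3b had the largest rise. It stood at 326, 301 and 316 CPM with DMSO and Ova and at 1333, 1342 and 1435 with iBET and Ova, a log2 fold change of 2.12 (SE 0.103, adjusted p = 1.39e-07). With IC it went from 321, 298 and 334 CPM to 1421, 1216 and 1482, or 2.11 (SE 0.103, adjusted p = 8.12e-08). No iBET library came near a DMSO library, and the mice of a group were close together. H3f3a, which encodes the same protein, moved less. Its levels with Ova were 356, 365 and 367 CPM with DMSO and 498, 423 and 366 with iBET, which overlapped in mouse C, and its log2 fold change of 0.24 (SE 0.135, adjusted p = 0.197) was not called. With IC they were 330.2, 288 and 333 CPM and 522, 385 and 493, a rise of 0.56 (SE 0.135, adjusted p = 0.00682), which was lost when mouse C was left out (adjusted p = 0.0552). The difference between the responses to the drug with Ova and with IC was not called for H3f3a (interaction 0.32, SE 0.191, adjusted p = 1).

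H1f0 encodes the linker histone that replaces other H1 proteins in cells that leave the cycle. It measured 36.98, 25.1 and 23.5 CPM with DMSO and Ova and 110.0, 114 and 105 with iBET, a log2 fold change of 2.00 (SE 0.198, adjusted p = 1.61e-05). With IC the values were 31.98, 24.5 and 18.9 CPM and 97.2, 84.5 and 77.3, or 1.78 (SE 0.191, adjusted p = 2.54e-05). The groups did not overlap with either stimulus. H2afz encodes H2A.Z, which marks promoters, and went from 109, 130.3 and 181 CPM to 206, 223 and 297 with Ova and from 98.2, 93.97 and 144 to 193, 163 and 274 with IC. It rose in each of the 3 mice with both stimuli, by 0.78 (SE 0.251, adjusted p = 0.0348) and 0.90 (SE 0.250, adjusted p = 0.016). In every group the library of mouse C was the highest for H2afz. Without mouse A these calls were lost (adjusted p = 0.228 with Ova and 0.162 with IC), and over all 25 alternatives the log2 fold change lay between 0.59 and 1.01 with Ova and between 0.67 and 1.13 with IC. Calls were also lost without mouse B, and without 1 library of the same stimulus, namely mouse A or B with DMSO or mouse C with iBET. With Ova they were lost as well without mouse B with iBET and Ova, without mouse A with DMSO and IC, and with no filter on low counts.

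H2afx, which encodes H2A.X of the DNA damage response and carries both a stem-loop and a longer 3′ end, stood at 30.3, 35.6 and 74.6 CPM with DMSO and Ova and 49.8, 63.4 and 108 with iBET and Ova. With IC it stood at 32.7, 30.5 and 59.00 with DMSO and 52.3, 42.6 and 88.6 with iBET. Each mouse was higher with iBET, yet mouse C with DMSO lay above mice A and B with iBET. The gene was not called without the mouse term (0.61, SE 0.423, adjusted p = 0.305 with Ova and 0.58, SE 0.419, adjusted p = 0.31 with IC) and was called with it (0.66, SE 0.127, adjusted p = 0.00137 and 0.59, SE 0.124, adjusted p = 0.00219). The other variants, H2afy (macroH2A), H2afv (H2A.Z.2) and H2afj, had log2 fold changes between -0.26 and 0.31, none called in either fit.

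**Figure D2:**
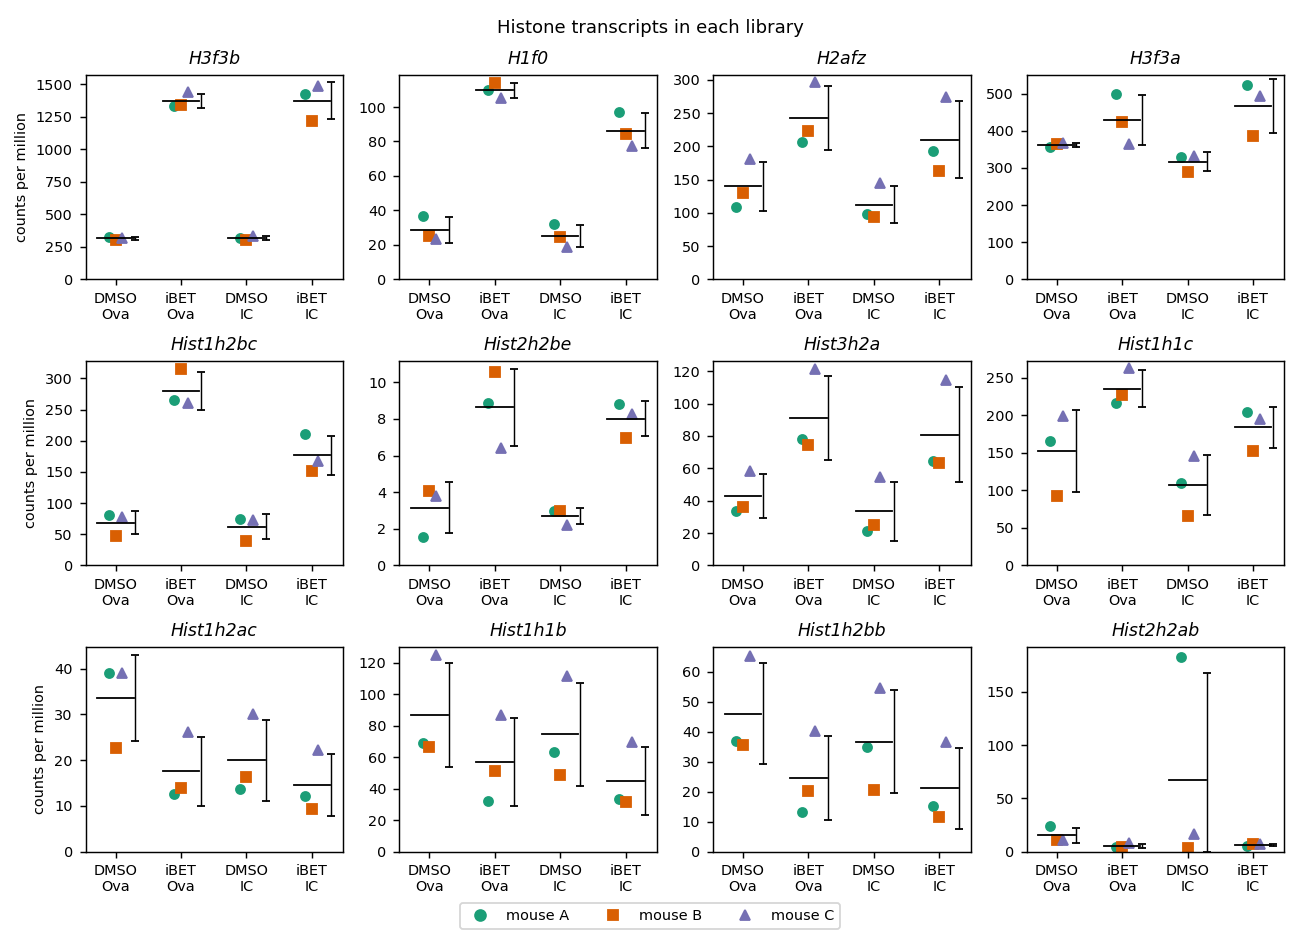
Level in CPM (y axis, linear, from 0) of 12 histone genes in each of the 12 libraries, by group, with symbols for the 3 mice, a bar for the mean and a whisker for the SD of the group, cut at 0 for Hist2h2ab. The iBET libraries of H3f3b, H1f0, Hist1h2bc and Hist2h2be lie above all DMSO libraries of the same stimulus, whereas Hist1h2ac, Hist1h1b and Hist1h2bb overlap between groups and are lower with iBET within each mouse.

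Hist1h2bc had the largest rise of the clustered genes. Its levels were 80.1, 47.9 and 78.1 CPM with DMSO and Ova and 265, 315 and 260.5 with iBET and Ova, a log2 fold change of 2.04 (SE 0.264, adjusted p = 0.00018). With IC they were 73.7, 39.1 and 73.5 CPM with DMSO and 211, 151 and 167 with iBET, or 1.51 (SE 0.257, adjusted p = 0.000977). The groups were apart with both stimuli, and the calls stood in all 25 alternative fits of each comparison. In 25.4% of its windows the transcript was shared with another gene, chiefly Hist1h2bg. Hist2h2be, with no shared window, was a low transcript at 1.54, 4.06 and 3.81 CPM with DMSO and Ova and 8.87, 10.6 and 6.43 with iBET and Ova. With IC it went from 2.95, 2.97 and 2.19 CPM to 8.81, 6.98 and 8.27. Its log2 fold changes were 1.27 (SE 0.264, adjusted p = 0.00307) and 1.57 (SE 0.260, adjusted p = 0.000589), with no overlap between groups. Without mouse B the call with Ova was lost (adjusted p = 0.0685).

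Hist3h2a measured 33.4, 36.3 and 58.3 CPM with DMSO and Ova and 78.2, 74.4 and 121 with iBET and Ova, and under IC 21.04, 25.2 and 54.4 CPM with DMSO and 64.4, 63.6 and 115 with iBET. Every iBET library lay above every DMSO library of its stimulus. The log2 fold change was 1.07 (SE 0.385, adjusted p = 0.0562) with Ova, which was not called, and 1.26 (SE 0.383, adjusted p = 0.0247) with IC. With the mouse term both were called (1.11, SE 0.129, adjusted p = 3.61e-05 and 1.32, SE 0.126, adjusted p = 6.60e-06). The gene overlaps Trim17 on the same strand and shares 29.8% of its windows, and the call with IC was lost in 7 of 25 alternatives. These left out mouse A (adjusted p = 0.217), mouse B, either of their libraries with DMSO and IC, or that of mouse C with iBET and IC, or used no filter or only the 2 groups compared. Hist1h1c, the clustered H1 gene with the highest level per kilobase, went from 166, 92.9 and 199 CPM to 216, 226 and 263 with Ova and from 109.8, 65.6 and 145 to 204, 152 and 195 with IC. It was called only with the mouse term (0.70, SE 0.184, adjusted p = 0.0124 and 0.84, SE 0.183, adjusted p = 0.004). The mouse term also added Hist1h2bg with Ova (0.74, SE 0.256, adjusted p = 0.0483) and Hist4h4, the only gene of the Hist4 locus, with IC (0.70, SE 0.203, adjusted p = 0.0154).

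With the mouse term, 9 members were called higher and 14 lower with Ova, against 20.4% and 17.9% of all genes, and 10 higher and 4 lower with IC, against 22.4% and 19.8%. The 14 members make up 18.9% of those tested, close to the share of all genes, and the 4 make up 5.41%. The 14 lowered with Ova were the linker histone genes Hist1h1b and Hist1h1d, 6 H2A genes (Hist1h2ac, Hist1h2af, Hist1h2ai, Hist1h2an, Hist1h2ao and Hist1h2ap), the H2B genes Hist1h2bb and Hist1h2bp and 4 H3 genes (Hist1h3b, Hist1h3e, Hist1h3g and Hist1h3i), and 0 of 13 H4 genes. All lie in the Hist1 cluster, as do 54 of the 68 clustered genes. Hist1h1b, Hist1h1d and Hist1h2bb were lowered with IC as well, and Hist1h4f with IC alone. Hist1h2ao and Hist1h2ap count nearly the same reads. The fit with the mouse term was repeated without the Rn45s-rich culture of mouse A with DMSO and Ova. It called 8 members higher and 21 lower with Ova, among 1860 and 2135 of 11667 genes. With IC it called 10 members higher and 11 lower, among 2573 and 2586 genes.

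Hist1h1b, which shares no window with another gene, stood at 68.8, 66.2 and 125 CPM with DMSO and Ova and 31.9, 51.4 and 86.9 with iBET, and under IC at 63.3, 48.5 and 111 with DMSO and 33.3, 31.8 and 69.4 with iBET. Each mouse fell with both stimuli, while mouse C with iBET remained above mice A and B with DMSO. The log2 fold change was -0.63 (SE 0.449, adjusted p = 0.319) without the mouse term and -0.64 (SE 0.157, adjusted p = 0.00704) with it for Ova, and -0.74 (SE 0.448, adjusted p = 0.227) and -0.75 (SE 0.155, adjusted p = 0.00211) for IC. Hist1h2bb showed the same layout, at 36.98, 35.5 and 65.3 CPM with DMSO and 13.04, 20.2 and 40.2 with iBET under Ova, and at 34.8, 20.5 and 54.6 and then 15.3, 11.4 and 36.4 under IC. With the mouse term its log2 fold changes were -0.98 (SE 0.226, adjusted p = 0.00619) and -0.87 (SE 0.221, adjusted p = 0.00916). Hist1h2ac, the head-to-head neighbour of Hist1h2bc, stood at 39.03, 22.6 and 38.96 CPM with DMSO and 12.5, 13.9 and 26.2 with iBET under Ova, and at 13.6, 16.3 and 30.1 and then 12.1, 9.40 and 22.2 under IC. With the mouse term it was called with Ova (-0.92, SE 0.199, adjusted p = 0.00306) but not with IC (-0.47, SE 0.196, adjusted p = 0.0733). The per-library values of these 3 genes and of H2afx, Hist1h2bg, Hist1h2ab and Hist1h2ad were chosen for printing after the values were seen.

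Counted by direction, 27 of 74 members were lower with iBET in all 3 mice with Ova and 22 with IC, against 27.0% and 33.0% of all genes, and 14 and 13 were higher in all 3, against 31.8% and 35.0%. These make 36.5% and 29.7% lower, and 18.9% and 17.6% higher. The H2A genes supplied 11 of the 27 with Ova. The groups were apart in the higher direction for 7 members with Ova and 8 with IC (9.46% and 10.8%, against 25.2% and 26.3% of all genes), and in the lower direction for 1 and 0, against 19.9% and 22.3%.

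Of the 2 clustered genes with the highest mean CPM in each class, those other than Hist1h2bc gave no call without the mouse term. Hist2h2aa1 and Hist2h2aa2, which share 1 row of counts, stood at 1180.3, 1007 and 1558 CPM with DMSO and Ova, 982, 963 and 1579.8 with iBET and Ova, 766, 581 and 1291 with DMSO and IC and 876, 560.3 and 1196 with iBET and IC. The log2 fold change for iBET was -0.09 (SE 0.341) with Ova and 0 within rounding (SE 0.340) with IC. In the H3 row of Hist2h3c1 and Hist2h3c2 the values were 116, 166 and 386 CPM with DMSO and 166, 173 and 409 with iBET under Ova, and 70.3, 153 and 410.0 with DMSO and 206, 147 and 402 with iBET under IC. Mouse C was the highest in each group for both rows. The H2B gene Hist2h2bb stood at 118, 112 and 183 CPM with DMSO and 117, 165 and 284 with iBET under Ova, and at 98.6, 46.98 and 155 and then 123, 68.99 and 198 under IC, so that the groups overlapped. The H4 gene Hist1h4h stood at 25.7, 63.4 and 125 CPM with DMSO and 27.9, 41.5 and 76.9 with iBET under Ova, and at 42.6, 39.9 and 118 and then 43.9, 29.4 and 56.1 under IC. For Hist1h4n, also an H4 gene, the values under Ova were 34.4, 47.2 and 56.4 CPM with DMSO and 42.98, 32.5 and 52.2 with iBET, and under IC they were 19.4, 25.9 and 79.97 and then 40.7, 32.3 and 76.7. Both H4 genes overlapped between the groups, and mouse C was again the highest. The linker histone gene Hist1h1e had 242, 116 and 227 CPM with DMSO and 78.2, 124 and 189 with iBET under Ova, and 215, 112 and 197 and then 90.9, 88.4 and 121 under IC, with log2 fold changes of -0.57 (SE 0.360, adjusted p = 0.256) and -0.81 (SE 0.359, adjusted p = 0.106). With iBET it was lower in every mouse except mouse B under Ova.

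The decline of Hist2h2ab with IC rested on 1 library. The gene measured 183, 3.08 and 16.8 CPM with DMSO and IC and 5.34, 7.07 and 6.95 with iBET and IC, a log2 fold change of -3.41 (SE 1.07, adjusted p = 0.0289). Mouse B was higher with iBET. The call was lost in 12 of 25 alternatives, among them the fit that left out mouse A with DMSO and IC (adjusted p = 0.441) and that with the mouse term (-2.60, SE 1.26, adjusted p = 0.145). With Ova it stood at 23.6, 10.8 and 11.2 CPM with DMSO and 4.40, 4.19 and 7.67 with iBET, which was not called (-1.35, SE 1.12, adjusted p = 0.396).

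The summed level of the clustered genes differed more between mouse C and the other mice than between drug and control. In all 4 groups the library of mouse C was the highest for 55 of the 66 clustered genes tested, or 83.3%, against 7.25% of all genes and 2 of the 8 variants. Summed over the 66 genes, mice A, B and C had 6027, 6125 and 12003 CPM with DMSO and Ova and 5320.1, 5711 and 10271 with iBET and Ova. With IC they had 4761, 4073 and 10246 CPM with DMSO and 5331, 3732 and 8509 with iBET. The ratio of the group means, iBET over DMSO, was 0.882 with Ova and 0.921 with IC. It depended on having both libraries of mouse C. Without the iBET library of mouse C the ratio was 0.685 with Ova and 0.712 with IC, and without the DMSO library of that mouse it was 1.17 and 1.33. Within mice the sum was lower with iBET in all 3 with Ova (ratios 0.883, 0.932 and 0.856) and in mice B and C with IC (0.916 and 0.831), but not in mouse A (1.12). The sum of the 8 variants was higher with iBET in every mouse. It went from 1017 ± 65.7 to 2362 ± 87.98 CPM with Ova and from 939.5 ± 82.3 to 2324 ± 278 with IC. Most of this rise was H3f3b alone, whose mean went from 314 to 1370 CPM with Ova and from 318 to 1373 with IC.

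The same mouse was the highest for other genes of dividing cells. Of 32 S-phase genes, such as the Mcm helicase subunits and the replication licensing factor Cdt1, 26 were the highest in mouse C in all 4 groups. Their sum was 1743, 1958 and 2542 CPM with DMSO and Ova, 1226, 1376 and 2001 with iBET and Ova, 1524, 1704 and 2514 with DMSO and IC and 1200.1, 1373 and 1888 with iBET and IC. It was lower with iBET in each mouse with each stimulus. All 4 neutrophil markers that could be tested were also the highest in mouse C in every group, with sums of 40.6 to 49.8 CPM there, 18.2 to 42.02 in mouse B and 7.70 to 15.3 in mouse A, whereas 0 of 10 macrophage markers were. Of 6 listed neutrophil markers 5 were in the table, none at 0 throughout, with 15 to 559 counts in a library. The part of these cells in the histone values was not tested.

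**Figure D3:**
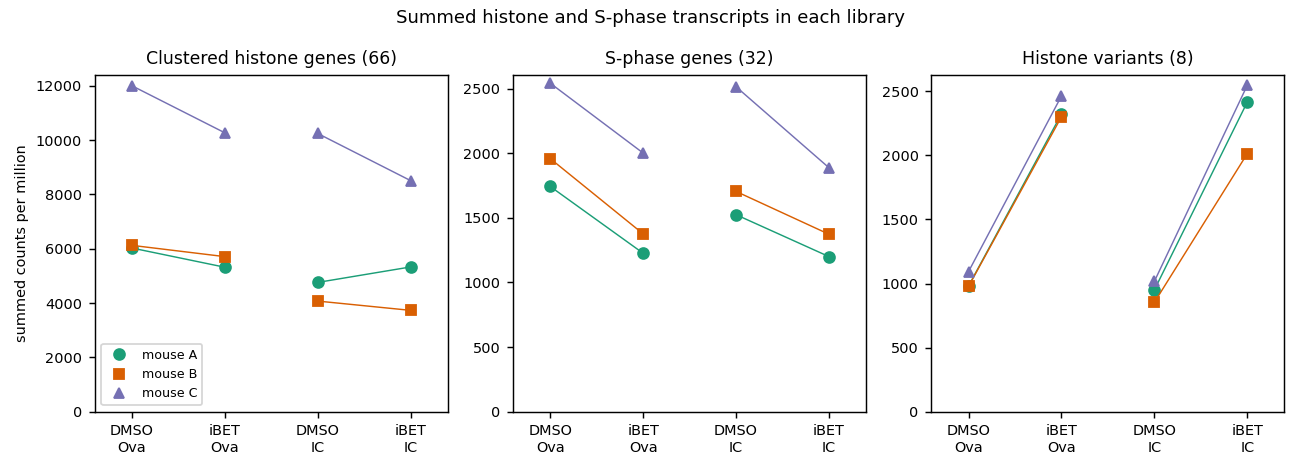
Summed CPM (y axis, from 0) of the 66 clustered histone genes tested, 32 S-phase genes and 8 histone variants in each library, with lines joining the DMSO and iBET libraries of a mouse. Mouse C lies above mice A and B for the clustered and S-phase genes. The sum of the variants, whose rise is mostly that of H3f3b, is higher with iBET in all 3 mice.

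The makeup of the histone transcripts differed between drug and control. Per kilobase, and with identical rows counted once, H3f3a and H3f3b supplied 32.3%, 23.6% and 11.6% of the H3 transcripts with DMSO and Ova and 58.05%, 46.5% and 31.3% with iBET and Ova. With IC their share was 37.3%, 25.6% and 11.2% with DMSO and 50.7%, 54.6% and 32.7% with iBET. The group means were 22.5% ± 10.4 and 45.3% ± 13.4 with Ova and 24.7% ± 13.04 and 46.00% ± 11.7 with IC (SD, n = 3). The share was higher with iBET in each mouse, but with both stimuli mouse A with DMSO lay above mouse C with iBET. H1f0 made up 3.63% ± 1.31 of the H1 transcripts with DMSO and Ova and 13.2% ± 3.54 with iBET and Ova, and 4.08% ± 1.80 and 13.1% ± 3.26 with IC, without overlap between the groups. The 5 H2A variants came to 2.07% ± 0.350 and 4.32% ± 0.863 of the H2A transcripts with Ova and 2.41% ± 0.579 and 4.52% ± 1.00 with IC, and these groups did not overlap either. These shares are of counted RNA per annotated length, and coding-only models make clustered genes count for more. Long models, such as the 7425 bases of Hist1h1d, make them count for less. The H3 row counted once was given the 1825 bases of Hist2h3c1 and not the 1020 of Hist2h3c2, which raises the share of H3f3a and H3f3b.

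**Figure D4:**
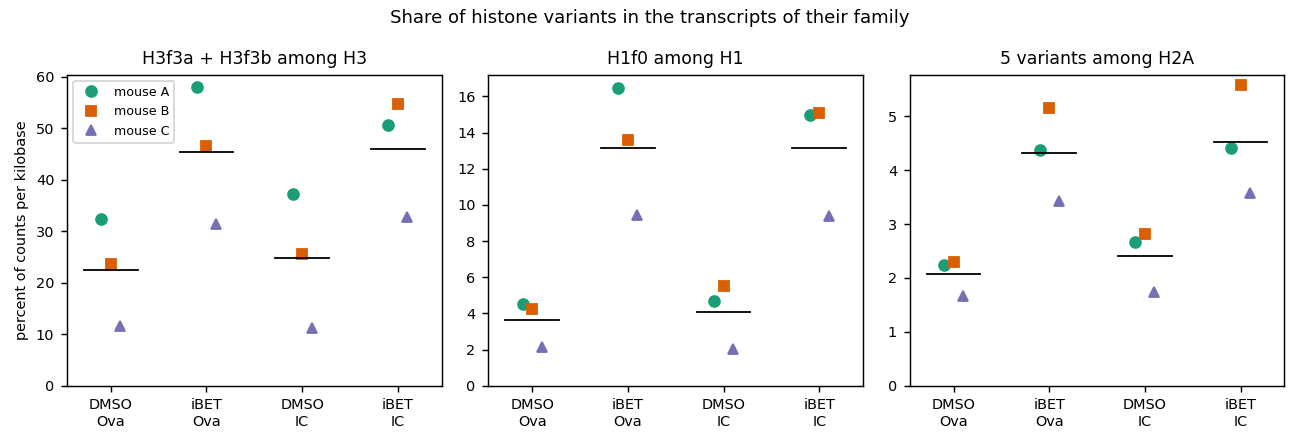
Percent of the CPM per kilobase of a histone family that came from its variants (y axis, from 0), for H3, H1 and H2A, in each library by group. Symbols are mice and bars group means. Every mouse has a higher share with iBET than with DMSO in all 3 families.

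Head-to-head neighbours often responded unequally although their starts are close. Of 14 pairs of members with facing starts at most 1000 bases apart, 13 had both genes tested, and the change of the log2 ratio between neighbours, averaged over both stimuli, was put to an exact permutation test within stimulus (two-sided, 400 arrangements, smallest possible p 0.005), adjusted over the 13 pairs. It passed in 8 pairs, each with adjusted p = 0.0163. That test ignores that the libraries are paired by mouse. With drug and control swapped only within a mouse, separately with Ova and with IC, 64 arrangements are left with a smallest possible p of 0.03125. Both tests treat the Ova and IC cultures of a mouse as independent, so neither has the mouse alone as its unit. All 8 pairs reached it, but with adjusted p = 0.0508 none passed. With 8 of 13 pairs at this floor none could pass after adjustment, so the swaps cannot decide on these pairs. The comparison was chosen after the values of Hist1h2bc and Hist1h2ac were seen. The starts of these 2 genes lie 251 bases apart, and the ratio of Hist1h2bc to Hist1h2ac rose by 2.52 on the log2 scale, in all 3 mice with each stimulus. For Hist2h2be over Hist2h2ac, with starts 239 bases apart, the rise was 2.16, and for Hist3h2a over the pseudogene Hist3h2bb-ps it was 1.37. That pseudogene was low, at a mean of 2.04 CPM over all libraries.

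Of the 12 pairs of an H2A with an H2B gene, these 8 changed in the same direction in all 3 mice with each stimulus. This restates that they reached the smallest possible p of the swaps and is no further evidence. In 7 of the 8 it was the H2B gene that gained on its neighbour. Besides the pairs named, Hist1h2bg gained on Hist1h2ae by 1.01, Hist1h2bj on Hist1h2ag by 0.67 and Hist1h2br on Hist1h2ap by 0.66, and the change was -1.11 for Hist1h2ai over Hist1h2bl and -0.66 for Hist1h2ao over Hist1h2bq. The pairs of Hist1h2br and Hist1h2bq rest on nearly the same reads. Shared windows made up 76.2% of Hist1h2ag, 88.4% of Hist1h2ai, 62.1% of Hist1h2bl and 92.2% of Hist1h2ap. Ratios of these pairs are therefore uncertain between copies. The remaining 5 pairs did not pass, with changes of either sign up to 0.40 for Hist1h2bk over Hist1h2ah, among them Hist1h2bp and Hist1h2an, which both had lower levels with iBET and whose ratio changed by -0.10. In the test without pairing all 8 passed without any single library, with adjusted p up to 0.0488, whereas without a mouse only 36 arrangements are left and the smallest possible p is 0.0556.

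**Figure D5:**
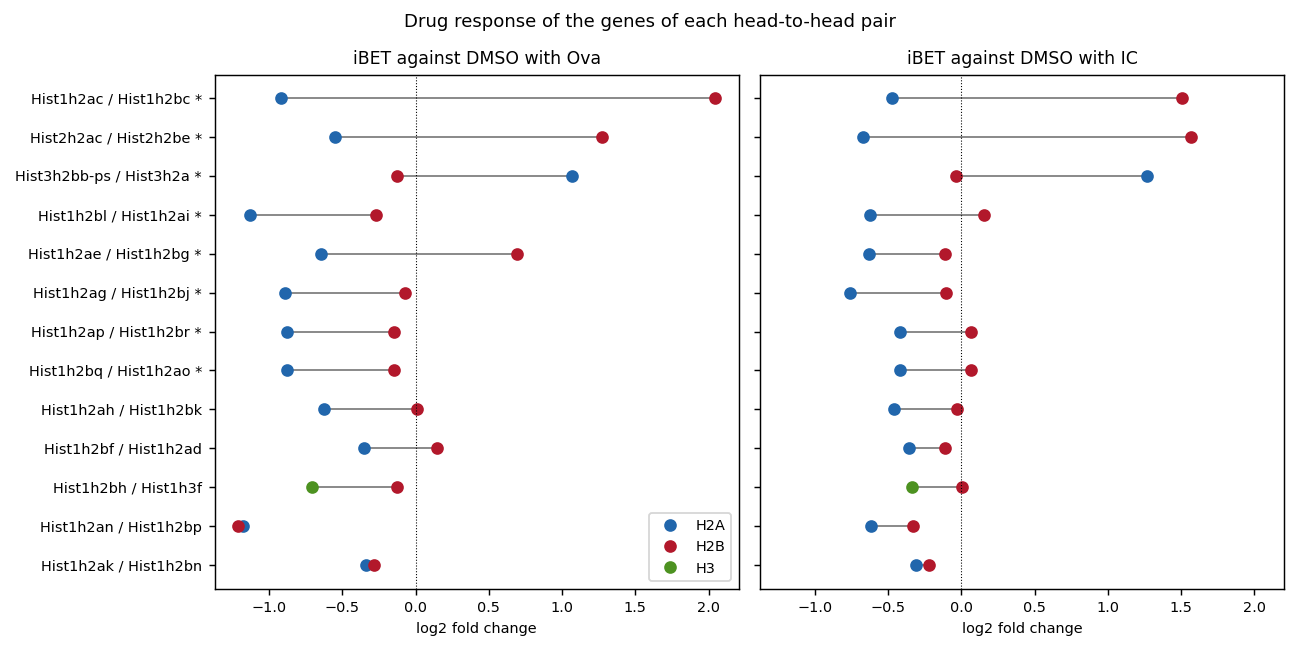
Log2 fold change of iBET against DMSO (x axis) of both genes of 13 head-to-head pairs, with Ova (left) and IC (right), coloured by histone class and joined by a line. An asterisk marks the 8 pairs that passed the exact permutation test without pairing by mouse. In the top 2 pairs the H2B gene rises while the H2A gene lies below 0.

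The 3′ end of the annotated transcript gave a second grouping. Among the 23 tested genes whose transcript ended within 100 bases of the stem-loop, 0 were called higher with either stimulus and in either fit, 6 were called lower with Ova with the mouse term and 2 with IC (26.1% and 8.70%, against 17.9% and 19.8% of all genes), and the median log2 fold changes were -0.54 and -0.38. Among the 22 that ran further, 0 were called higher with Ova and 1 with IC, or 3 and 3 with the mouse term. With that term 3 of them were called lower with Ova and 1 with IC (13.6% and 4.55%). Their medians were -0.26 and -0.31. Among the 9 genes with a transcript longer than the coding part and no match, 2 were called higher with each stimulus. These 9 include the pseudogene Hist3h2bb-ps and the identical rows of Hist1h2bq and Hist1h2br. Some of their models end soon after the coding part, at 444 against 393 bases in Hist2h2ab and 743 against 672 in Hist1h1b. A stem-loop beyond such an end could not be seen. With the mouse term 1 was called lower with each, and without it 1 with IC. Of the 12 tested genes whose models hold the coding part only, 0 were called higher in either fit. With the mouse term 4 of these were called lower with Ova (33.3%) and 0 with IC. The clustered genes called higher in either fit were Hist1h2bc, Hist2h2be, Hist3h2a, Hist1h1c, Hist1h2bg and Hist4h4. Their annotated transcripts all lacked a match or ran over 100 bases past it. The same held for all but 23 of the 66 clustered genes tested. Genes called lower with the mouse term, such as Hist1h1b, Hist1h1d, Hist1h2ac and Hist1h3e, had this trait too. The octamer was in the window of the gene or of its neighbour in 17 tested members, of which 3 were called higher with Ova and 4 with IC. These are 17.6% and 23.5%, close to the 17.1% and 19.0% of all genes. It was absent from the windows of 54, of which 2 and 3 (3.70% and 5.56%) were called higher. No test was made of either grouping.

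The second question was whether immune complexes changed histone transcripts. With DMSO, 0 of 74 members were called for IC against Ova, while 1.22% of all genes were called. An unadjusted p under 0.05 was reached by 0 members, or by 18 with the mouse term. DESeq2 also called 0 members without the mouse term. With it DESeq2 called 6 of 73 members, among 427 of 11051 genes. In edgeR with the mouse term 3 were called lower, against 1.27% of all genes, namely Hist1h2an (-0.98, SE 0.186, adjusted p = 0.0176) and the shared row of Hist2h2aa1 and Hist2h2aa2 (-0.56, SE 0.121, adjusted p = 0.0289). The log2 fold change was below 0 in 65 of 74 members with a median of -0.34. That median was 0.12 without mouse C under DMSO and Ova and -0.90 without mouse C under DMSO and IC. With mouse C left out altogether it was -0.41. In all, 37 members (50%) were lower in all 3 mice, against 22.5% of all genes, while 0 were higher in all 3, against 20.7%. With iBET, 0 members were called in either fit by edgeR, while 0.349% and 0.741% of all genes were called. In edgeR 2 members had an unadjusted p under 0.05, or 13 with the mouse term. DESeq2 called 0 members, or 2 of 73 with the mouse term, when 177 of 11051 genes were called. There 21 members (28.4%) were lower in all 3 mice, against 19.4% of all genes.

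The contrasts of IC with Ova share libraries with the drug contrasts. The response to the drug was not shown to differ between Ova and IC for any member. The interaction called 0 members and 0 of all genes in either fit, with 0 members at an unadjusted p under 0.05, or 3 with the mouse term. DESeq2 called 0 members as well. Hist1h2bg, an H2B gene, was the only member that moved one way in every mouse with Ova and the other way with IC. Under Ova it stood at 36.5, 47.9 and 80.4 CPM with DMSO and 72.1, 93.1 and 109 with iBET, and under IC at 62.03, 35.2 and 77.1 and then 57.00, 31.1 and 73.5. Its interaction was -0.81 (SE 0.523) on the log2 scale, with unadjusted p = 0.151 in edgeR and adjusted p = 1. The gene shares 44.9% of its windows, chiefly with Hist1h2bc.

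The factors that make and process histone mRNA gave a mixed picture. Slbp, the stem-loop binding protein, stood at 52.4, 43.5 and 57.1 CPM with DMSO and Ova and 80.1, 88.01 and 86.4 with iBET, and under IC at 47.7, 37.6 and 46.8 and then 72.1, 73.4 and 75.9, without overlap. It rose by 0.74 (SE 0.122, adjusted p = 0.000676) and 0.74 (SE 0.120, adjusted p = 0.000498). Npat (-0.07, SE 0.103, adjusted p = 0.638 and 0.14, SE 0.101, adjusted p = 0.3) and Casp8ap2, its partner at histone loci (-0.08, SE 0.227, adjusted p = 0.826 and -0.08, SE 0.222, adjusted p = 0.798), were not called. Of 19 tested genes of histone mRNA processing, 3 were higher and 3 lower with Ova (15.8% each, near the 17.1% and 14.2% of all genes) and 4 and 6 with IC (21.1% and 31.6%, against 19.0% and 15.8%). Ncbp1 of the nuclear cap-binding complex (0.56 and 0.39) and the uridylyltransferase gene Zcchc6 (0.64 and 0.59) rose with both stimuli on the log2 scale, and Elac2 (-0.53 and -0.48) fell. With IC the translation factor gene Ctif rose (1.07) and Ncbp2, the partner of Ncbp1, fell (-0.83).

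Of 30 histone chaperone and supply genes, 6 were higher and 3 lower with Ova (20% and 10%) and 4 and 3 with IC (13.3% and 10%), or 6 and 5 with Ova and 5 and 6 with IC with the mouse term, not far from the shares of all genes. Ssrp1, a subunit of the FACT chaperone, fell with both stimuli (-0.84 and -0.90). Ubn1, a subunit of the HIRA complex that deposits H3.3 (0.76 and 0.94), Ep400, a remodeller that handles H2A.Z (0.81 and 0.77), and Spty2d1 (0.82 and 0.83) rose. Daxx, also an H3.3 chaperone, had lower means with iBET than with DMSO, at 35.5 against 56.4 CPM with Ova and 34.8 against 58.2 with IC. Hira of the HIRA complex averaged 28.2 CPM with iBET against 24.3 with DMSO under Ova, and 27.5 against 29.2 under IC. Daxx and Hira were chosen after the values were seen. Of the 32 S-phase genes, 10 fell and 0 rose with each stimulus (22 and 19 fell with the mouse term), with medians of -0.67 and -0.63. E2f2, an activator of S-phase genes (-2.21 and -1.95), and Cdt1 (-1.28 and -1.22) were among them. Of 14 genes of cell cycle exit, 4 rose and 1 fell with each stimulus (28.6% and 7.14%), and with the mouse term 4 rose and 3 fell with Ova and 4 rose and 4 fell with IC. Cdkn1a, the CDK inhibitor p21 (0.93 and 1.19), Ccng2 (0.92 and 1.11) and the antiproliferative gene Btg2 (1.14 and 1.72) rose. Of 7 genes known to respond to BET inhibitors, 3 rose and 2 fell with each stimulus, among them Hexim1, an inhibitor of P-TEFb (2.44 and 2.50), Brd2, a BET protein gene (2.53 and 2.82), and Ccr2, a chemokine receptor gene (-3.21 and -2.60). Of 9 other histone variant genes 2 could be tested, and the linker histone gene H1fx rose with Ova (0.99, SE 0.216, adjusted p = 0.00419).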

How the data were processed

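RNA of 12 macrophage cultures, from 3 mice in each of 4 groups, was sequenced from total RNA with a low-input SMARTer kit. The authors trimmed reads with Trim Galore, aligned them to mm10 with HISAT2 and counted them per gene with featureCounts. They deposited raw counts and a normalized signal, which equals the counts divided by DESeq2 size factors (largest relative gap 4.89e-15). Versions, annotation, strand setting and the handling of reads with several homes are not given in the sources used here.

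Groups and mice were taken from the sample labels. The deposited counts were scaled by TMM and filtered with filterByExpr (minimum count 10). They were tested in R 4.3.3 with the robust quasi-likelihood test of edgeR 4.0.16, with 1 term per group, 5 contrasts and Benjamini-Hochberg adjustment over 11468 genes. The tests were run on simulated data beforehand. All members tested could be named. Values per library were given for the 2 with the highest mean CPM in each class and for the 5 largest called rises and falls of each contrast. Slbp, Npat, Casp8ap2 and up to 4 called genes per gene list and drug contrast were named beside them. Daxx and Hira were also named, after their values were seen. The members, gene lists and tests were chosen with earlier results of these data known.

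Alternatives used DESeq2 1.42.0, its size factors, 1 surrogate variable from sva 3.50.0, no filter, no Rn45s, only the groups compared, the deposited signal in limma 3.58.1 on log2(signal + 1), and fits without each library or mouse. A further alternative added the mouse as a term. The labels give the same mouse to 1 library of each group, so the libraries are paired. Over 18 pairs of libraries of the same mouse the correlation of the deviations from the group means was -0.07 to 0.54 (median 0.26, over 0.1 in 12), and over 36 pairs of different mice the median was -0.13. The mice are separate animals, and each group holds 3 of them. The tests of neighbouring genes and the fit with the mouse term without mouse A with DMSO and Ova were added after the data were seen. Stem-loops were searched in GENCODE vM21 transcripts and promoter windows came from RefSeq (GRCm38.p6).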

Additional observations from a re-analysis of the deposited data

How the results depend on the processing

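The rises of H3f3b, H1f0 and Hist1h2bc passed the threshold in each of the 25 alternatives with both stimuli. The main counts were 5 members higher and 0 lower with Ova, 7 higher and 1 lower with IC, and 0 for IC against Ova and for the interaction. With the mouse as a block (the paired fit) 9 were higher and 14 lower with Ova, 4 were lower with IC and 3 were called for IC against Ova with DMSO. The block in DESeq2 gave 9 higher and 17 lower with Ova, among 1981 and 2131 of 12954 genes. With IC it gave 10 higher and 10 lower, among 2247 and 2385 of 12637. For IC against Ova it gave 6 with DMSO and 2 with iBET, among 427 and 177 of 11051. The block, with mouse A under DMSO and Ova left out, gave 8 higher and 21 lower with Ova, 11 lower with IC and 1 for IC against Ova with DMSO. Of 11667 genes that fit called 1860 higher and 2135 lower with Ova, 2586 lower with IC and 223 for IC against Ova with DMSO. With only the groups compared, 1 member was lower with Ova. With IC, DESeq2 without the block called 2 lower, and 0 were lower with no filter and with limma on the deposited signal. The mouse term moved no other count of histone members called per contrast by over 1.5 times.

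Without 1 library, 4 to 6 members were higher and 0 to 1 lower with Ova, and 5 to 9 higher and 0 to 3 lower with IC. Without 1 mouse, these were 3 to 7 and 0 to 4 with Ova and 5 to 8 and 0 to 2 with IC. The lowest count with Ova, 3, came without mouse B, and the 4 lower came without mouse C. The ratio of the clustered sums ranged from 0.685 to 1.17 with Ova and from 0.712 to 1.33 with IC without 1 library. The direction was the same in all 26 fits for 36 of 74 members with Ova and for 26 with IC, and for 72 and 66 where no library was left out. Among the members called in either fit and the pairs, 3 genes and 3 pairs changed sign in some fit. The log2 fold change with Ova, left-out fits included, ranged from -1.29 to 0.039 for Hist1h2af, from -1.22 to 0.050 for Hist1h3b and from -1.22 to 0.027 for Hist1h3g, each above 0 when mouse C with DMSO and Ova was left out. The 3 pairs that changed sign had not passed their test. For them the change of the log2 ratio ranged from -0.087 to 0.23 for Hist1h2bn over Hist1h2ak. It ranged from -0.38 to 0.32 for Hist1h2bp over Hist1h2an and from -0.69 to 0.0020 for Hist1h2ad over Hist1h2bf. Swapped within mice separately for each stimulus (a pairing by mouse), none of the 8 pairs that had passed did so (exact permutation, adjusted p = 0.0508). Each of the 8 was at the smallest possible p of that test. The cause of the changes of sign was not tested. Mouse A with DMSO and Ova held 7816770 counts of which 77.4% were Rn45s, which limits the low members most.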
